A study of Mus musculus with 12 samples.

Results

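The genes described here were 10 members of the Bcl2 family of apoptosis regulators, namely Bcl2, Bcl2l1, Mcl1, Bcl2l11, Bmf, Bid, Bik, Bad, Bak1 and Bax. They were taken by gene symbol from an expression table of 47729 mouse genes, and all 10 had a row. Expression was given as FPKM, a measure that divides a gene's fragments by its exon length and by the depth of the library. A gene was tested when it reached 1 FPKM in at least 2 libraries, which 13981 genes and 9 of the 10 members did. Bcl2 did not reach that level and is described by its values alone.

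The cells were embryonic stem cells of the E14Tg2a line, derived from 129/Ola mice. The delta 0.7 cells, called delta below, lacked a regulatory region of Tcf15 on both alleles (chr2:152177049-152177722, 674 bp, mm10). The wild type (WT) cells were of the same line without the deletion. Both genotypes were sampled in serum-free N2B27 with 2i and LIF, which keeps stem cells in the naive state (0 h), and 12 and 24 h after transfer to fibronectin with Activin, bFGF and KOSR, which induces epiblast-like cells. The delta columns of the table carry the name of 1 clone, so an effect of the deletion and a property of that clone cannot be told apart. Each genotype and time had 2 libraries, numbered 1 and 2 in the titles. Nothing in the labels states whether the 2 came from separate cultures, so the p-values describe the spread between these libraries, which may be technical.

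Proteins of the Bcl2 family decide whether the outer membrane of the mitochondrion stays closed. The effectors Bax and Bak1 form pores that release cytochrome c, which starts the caspase cascade. The anti-apoptotic proteins Bcl2, Bcl2l1 (Bcl-xL) and Mcl1 hold the effectors in check. The BH3-only proteins Bcl2l11 (Bim), Bmf, Bid, Bik and Bad relay death signals by binding anti-apoptotic proteins and, for Bim and the cleaved form of Bid, by activating the effectors directly. Pluripotent cells are known for a low threshold to mitochondrial apoptosis. Programmed death also removes cells from the epiblast of the early embryo.

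All family members share the BH3 motif, a leucine followed by any 3 residues, then a small residue and an aspartate. A search of the annotated coding sequences (GENCODE M21, mm10) found it at 1 place in each of the 10 members. The small residue was glycine in 8 members, alanine in Bmf and serine in Bad. The coding bases of this core are shown for the 5 BH3-only genes and for 1 effector and 1 anti-apoptotic gene, since this stretch of 18 bases is what the classes have in common. Each is written 5′ to 3′ along the coding strand, and the capitals mark the codons of the small residue and the aspartate.
Bcl2l11: ctgcggcggatcGGAGAC
Bmf: cttcagtgtattGCAGAC
Bid: ctcgcccaaataGGCGAT
Bik: ctggcctgcatcGGCGAT
Bad: ctccgaaggatgAGCGAT
Bax: ctccggcgaattGGAGAT
Mcl1: ctgcggcgcgtgGGCGAC
The core of Bcl2l11 lies at chr2:128147150-128147167 on the plus strand and that of Bmf at chr2:118545109-118545126 on the minus strand. The core of Bid lies at chr6:120897298-120897315 (minus), that of Bik at chr15:83543084-83543101 (plus) and that of Bad at chr19:6950792-6950809 (plus). The core of Bax lies at chr7:45466006-45466023 (minus) and that of Mcl1 at chr3:95659436-95659453 (plus).

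Bcl2l1, Bcl2l11 and Bmf lie on chromosome 2, as does the deleted region. Bcl2l1 (chr2:152780668-152831728, minus strand) was nearest, 602.9 kb from it. Bcl2l11 (chr2:128126038-128162547, plus) was 24014.5 kb away and Bmf (chr2:118528757-118549687, minus) 33627.4 kb away. The other 7 members lie on chromosomes 1 (Bcl2), 3 (Mcl1), 6 (Bid), 7 (Bax), 15 (Bik), 17 (Bak1) and 19 (Bad).

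The libraries held 9740851 to 17571255 reads, recovered from the steps between low FPKM values. Stem cell markers were present in every library, with 6 of 6 reaching 1 FPKM, while 0 of 7 primitive endoderm markers did. Of the markers of other cell types, 7 of 12 fibroblast, 4 of 6 trophoblast, 3 of 4 neural and 1 of 4 immune markers reached 1 FPKM in some library. Trophoblast markers summed to 14.7 to 38.1 FPKM in delta and 17.6 to 50.5 FPKM in WT libraries, and neural markers to 16.3 to 48.3 FPKM in delta and 13.0 to 39.3 FPKM in WT libraries. Of the 4 trophoblast markers tested, Tfap2c and Cdx2 fell by 12 h and 24 h in both genotypes, while Krt8 and Eomes were not called. Tfap2c averaged 0.421 FPKM at 24 h, against 13.2 FPKM at 0 h, in delta cells, and 0.602 FPKM, against 15.4 FPKM, in WT cells. Cdx2 averaged 0.0431 FPKM at 24 h, against 3.35 FPKM at 0 h, in delta cells, and 0.192 FPKM, against 6.97 FPKM, in WT cells. Krt8 averaged 13.0, 23.3 and 13.0 FPKM at 0, 12 and 24 h in delta cells, and 17.1, 24.6 and 17.3 FPKM in WT cells. Eomes averaged 1.80 FPKM at 24 h, against 1.67 FPKM at 0 h, in delta cells, and 1.54 against 1.43 FPKM in WT cells. The part of these cell types in the members' changes was not tested. Of 15 naive pluripotency genes, 12 fell and 2 rose at 24 h in delta cells, and 11 fell and 1 rose in WT cells. Of 12 formative epiblast genes, 12 rose in delta cells and 11 in WT cells at 24 h. Tcf15 was lower in delta than in WT cells averaged over the times (log2 difference -3.27, limma with Benjamini-Hochberg adjusted p = 0.00504). The libraries split by number at every time and in both genotypes. Mitochondrially encoded genes made up 0.447% to 0.647% of reads in number 1 libraries and 1.80% to 2.87% in number 2 libraries. The cause of this split was not tested, and the main model has no term for the number. The number 1 libraries at 0 h also stood apart from the rest. Ribosomal protein genes made up 13.5% (delta) and 11.5% (WT) of their reads, against 5.75% to 7.52% in the other libraries. The 3 number 1 libraries of WT cells had a summed FPKM of 83.3 to 157 over 12 fibroblast markers. The sums were 33.6 to 65.8 in the number 2 libraries of WT cells and 27.1 to 147 in delta libraries. Vim alone gave 135 of the 157 FPKM in WT and 144 of the 147 FPKM in delta cells, both in 0 h libraries numbered 1. Col1a1, Col3a1, Acta2 and Tagln were higher in each WT number 1 library than in every other library. Tagln reached 7.84 to 21.1 FPKM there, against 0.281 to 1.33 FPKM in delta libraries. Of the other markers reaching 1 FPKM, Vim, Thy1 and Dcn overlapped between WT number 1 and delta libraries. For each of the 9 tested members the change from 0 h, at 1 or both later times, is therefore also given without the pair numbered 1, which leaves 1 library for each genotype at 0 h.

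Transcript levels differed widely among the 10 genes. The effector Bax had the highest median over the 12 libraries (313 FPKM), followed by Mcl1 (133 FPKM) and Bak1 (40.6 FPKM). Bid (13.8 FPKM), Bcl2l1 (11.8 FPKM), Bad (6.43 FPKM) and Bmf (4.51 FPKM) held the middle. Bcl2l11 (2.43 FPKM), Bik (1.07 FPKM) and Bcl2 (0.0268 FPKM) were the lowest. Every Bax value lay above every Mcl1 value, every Mcl1 value above every Bak1 value, and every Bcl2 value below every Bik value. Neighbours between Bak1 and Bik in this order overlapped over the libraries. FPKM rests on the gene length used, and the lengths recovered from the table for Bax (869 bases), Bik (943 bases) and Bad (2007 bases) were shorter than their annotated exons in GENCODE M21 (1576, 1591 and 2558 bases). With the same reads, a longer length would give a proportionally lower FPKM. With the same reads at its annotated length, Bax would overlap Mcl1 over the libraries, so their separation may rest on the shorter length. Reads in the added bases were not recounted, so the FPKM at the annotated lengths is not known.

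**Figure D1:**
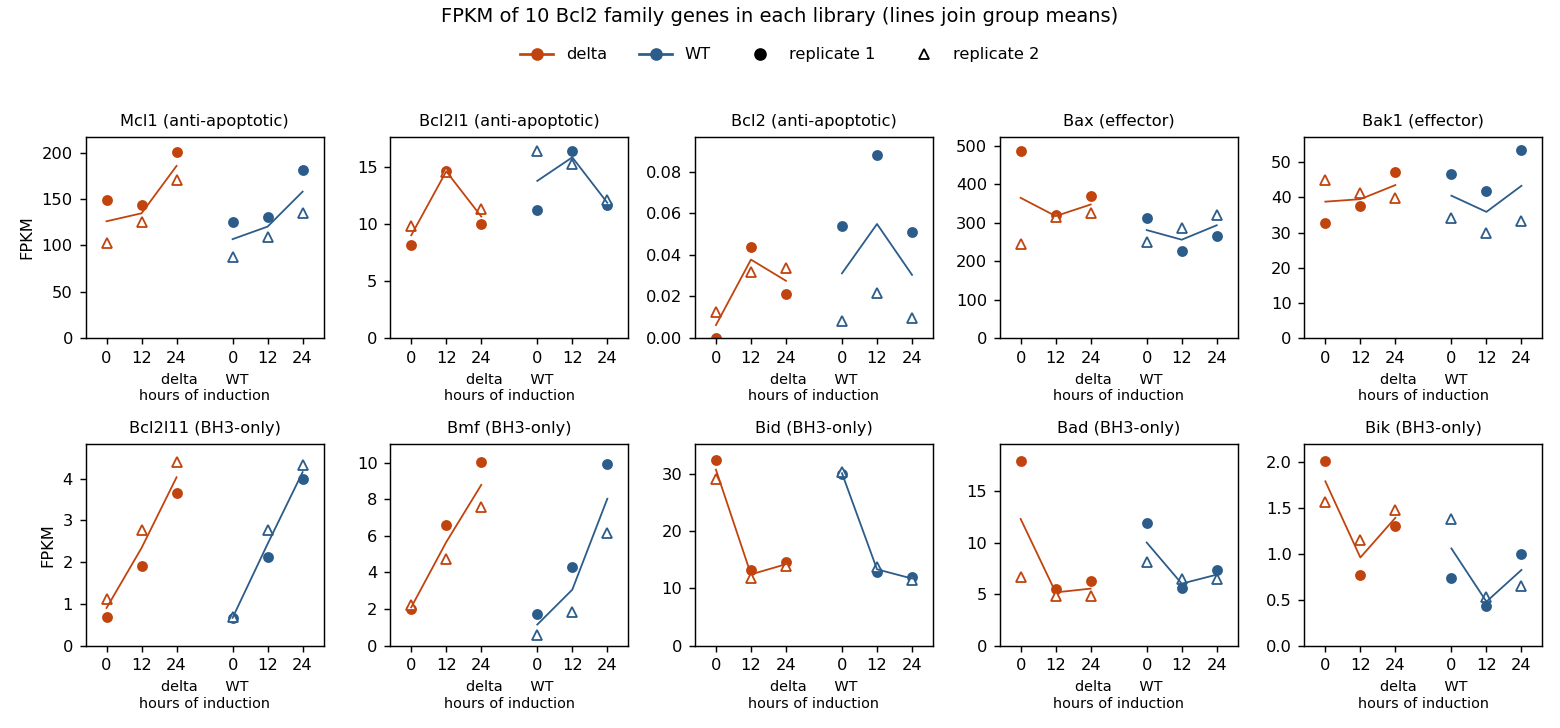
FPKM of each of the 10 genes in each library (vertical axes, linear and different for each gene) against hours of induction, delta libraries in red on the left of each panel and WT libraries in blue on the right. Filled circles are replicate 1, open triangles replicate 2, and lines join group means; Bcl2l11 and Bmf are higher and Bid is lower at 12 and 24 h than at 0 h in both genotypes.

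The clearest movement was an exchange among the BH3-only genes. Bcl2l11 and Bmf rose and Bid fell during induction, in both genotypes. At 24 h, 2 members rose and 1 fell among the 9 tested in delta cells, where 15.4% of all tested genes were called (7.58% higher and 7.8% lower). In WT cells 2 rose and 1 fell as well, where 10.2% of all tested genes were called (5.27% higher and 4.94% lower). At 12 h, 0 members rose and 1 fell in delta cells, against 7% of all tested genes (3.55% higher and 3.45% lower). In WT cells 1 rose and 1 fell at 12 h, against 4.03% of all tested genes (2.13% higher and 1.9% lower). A gene was called, and is said to rise or fall, at a Benjamini-Hochberg (BH) adjusted p under 0.05 in limma on log2(FPKM + 1). The median change of the 9 members at 24 h was 0.17 in delta and 0.07 in WT cells on that log2 scale, against -0.05 and -0.03 over all tested genes. Both genotypes' changes are measured against 0 h libraries of their own.

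Bcl2l11 encodes Bim, the BH3-only protein that binds all anti-apoptotic members. The delta libraries gave 0.694 and 1.11 FPKM at 0 h, 1.91 and 2.76 FPKM at 12 h, and 3.66 and 4.40 FPKM at 24 h. The WT libraries gave 0.652 and 0.679 FPKM at 0 h, 2.11 and 2.76 FPKM at 12 h, and 3.98 and 4.33 FPKM at 24 h. In both genotypes each later library lay above both 0 h libraries, and both 24 h libraries lay above both 12 h libraries. The mean at 24 h was 4.48 times that at 0 h in delta cells and 6.24 times in WT cells. On the log2(FPKM + 1) scale, which understates the change of low genes, the rise at 24 h was 1.41 in delta (limma, BH-adjusted p = 0.00243) and 1.63 in WT cells (limma, BH-adjusted p = 0.00147), with an SE of 0.21 each. The libraries held 50 to 457 reads of this gene. At 12 h the change was 0.81 in delta cells, which did not pass (limma, BH-adjusted p = 0.0517), and 1.04 in WT cells, which did (limma, BH-adjusted p = 0.0275).

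The 12 h result for Bcl2l11 lay close to the threshold in both genotypes. With the replicate number as a block it passed in delta cells too (limma, BH-adjusted p = 0.0175). In WT cells it was called in 4 of the 12 fits that each left out 1 library, being lost without any one of the 6 WT libraries or either delta 24 h library, and the adjusted p reached 0.167 without WT 12 h replicate 2. The 24 h rise was called in all 12 such fits in both genotypes. Without the 0 h libraries numbered 1, the 24 h rise of Bcl2l11 was 1.25 in delta (limma, BH-adjusted p = 0.00766) and 1.62 in WT cells (limma, BH-adjusted p = 0.00415). The 12 h difference was then 0.65 in delta (limma, BH-adjusted p = 0.0935) and 1.03 in WT cells (limma, BH-adjusted p = 0.0377).

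Bmf encodes a BH3-only protein that is held on the actin cytoskeleton and released on loss of attachment. In delta cells its levels were 1.97 and 2.21 FPKM at 0 h, 6.60 and 4.71 FPKM at 12 h, and 10.001 and 7.55 FPKM at 24 h. In WT cells they were 1.73 and 0.570 FPKM at 0 h, 4.30 and 1.81 FPKM at 12 h, and 9.91 and 6.13 FPKM at 24 h. The later libraries lay above both 0 h libraries in each genotype, although WT replicate 2 was well below WT replicate 1 at every time. The mean at 24 h was 4.20 times that at 0 h in delta cells and 6.98 times in WT cells. The rise at 24 h was 1.65 in delta (limma, BH-adjusted p = 0.0181) and 2.09 in WT cells (limma, BH-adjusted p = 0.00802) on the log2 scale, with an SE of 0.38 each. The 12 h differences of 1.09 in delta (limma, BH-adjusted p = 0.124) and 0.90 in WT cells (limma, BH-adjusted p = 0.267) did not pass, and with the replicate block the one in delta cells did (limma, BH-adjusted p = 0.0258).

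The Bmf call in delta cells at 24 h depended on single libraries. It was lost without delta 0 h replicate 1 (limma, BH-adjusted p = 0.0553), delta 24 h replicate 1 (0.125) or delta 24 h replicate 2 (0.0702). The call in WT cells was lost without WT 24 h replicate 1 (limma, BH-adjusted p = 0.0753). Without the 0 h libraries numbered 1, both calls for Bmf held, at 1.60 in delta (limma, BH-adjusted p = 0.0329) and 2.49 in WT cells (limma, BH-adjusted p = 0.00923). The 12 h differences were then 1.04 in delta and 1.30 in WT cells, and neither passed (limma, BH-adjusted p = 0.1503 and 0.1196).

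Bid encodes the BH3-only protein that caspase 8 cleaves, and so links death receptors to the mitochondrion. Delta libraries had 32.5 and 29.1 FPKM at 0 h, 13.2 and 11.8 FPKM at 12 h, and 14.6 and 13.9 FPKM at 24 h. WT libraries had 30.03 and 30.3 FPKM at 0 h, 13.0 and 13.7 FPKM at 12 h, and 11.9 and 11.5 FPKM at 24 h. The 0 h libraries were far above all later ones, and the replicates lay close together. By 12 h Bid fell to a mean of 12.5 FPKM in delta cells, against 30.8 FPKM at 0 h, a level 2.47-fold lower. In WT cells it fell to 13.3 FPKM at 12 h, against 30.2 FPKM at 0 h, 2.26-fold lower.

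Bid had the smallest adjusted p of the 9 genes in each of these 4 changes. At 12 h its difference was -1.24 in delta (limma, BH-adjusted p = 0.00209) and -1.12 in WT cells (limma, BH-adjusted p = 0.00456) on the log2 scale. At 24 h it was -1.06 in delta (limma, BH-adjusted p = 0.00195) and -1.29 in WT cells (limma, BH-adjusted p = 0.00097), with an SE of 0.15 for each of the 4 changes. Both 24 h calls and the 12 h call in delta cells held in all 12 fits that left out 1 library. The 12 h call in WT cells was lost without WT 12 h replicate 1 (limma, BH-adjusted p = 0.0608). Without the 0 h libraries numbered 1, the 24 h difference of Bid was -0.98 in delta (limma, BH-adjusted p = 0.00177) and -1.30 in WT cells (limma, BH-adjusted p = 0.000941). The 12 h difference of Bid was then -1.16 in delta (limma, BH-adjusted p = 0.00212) and -1.13 in WT cells (limma, BH-adjusted p = 0.0034). Bid shares 628 exon bases, 17.69% of its annotated length, with Bcl2l13 on the opposite strand, which reached at most 7.74 FPKM. The strandedness of the counting was not given in the sources used, so reads of such overlapping genes could be shared.

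**Figure D2:**
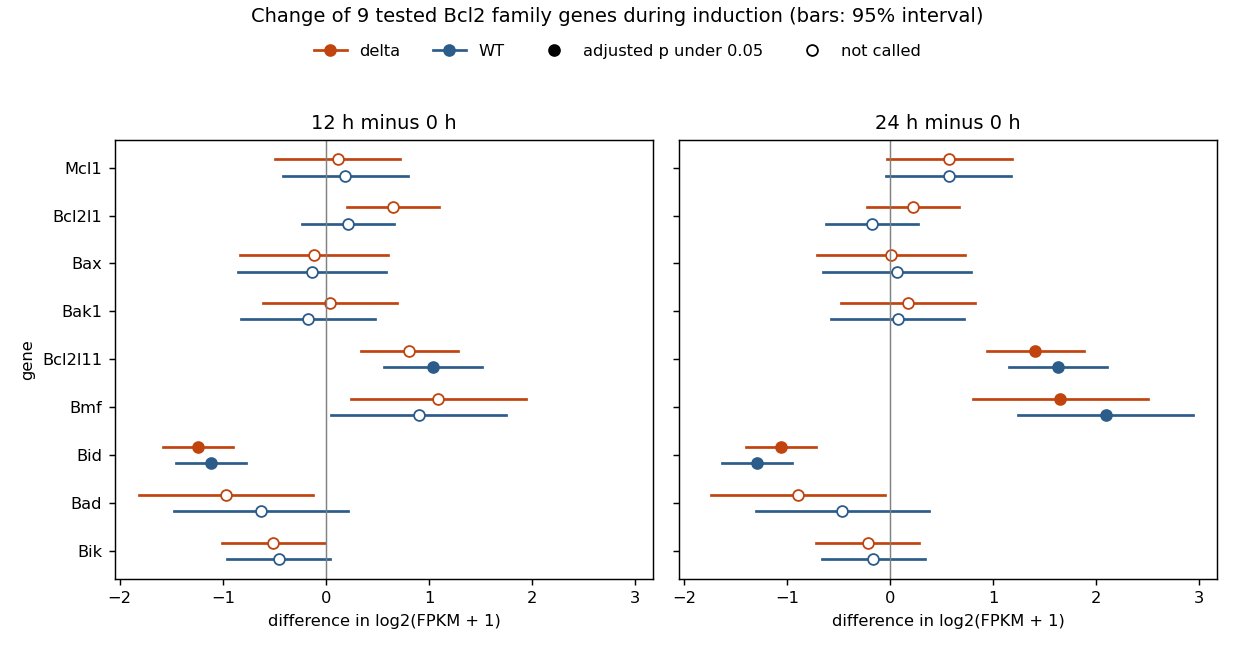
Change from 0 h to 12 h (left) and to 24 h (right) of the 9 tested genes, as the difference in log2(FPKM + 1) on the horizontal axis, with delta above WT for each gene and bars for the 95% interval of the model. Filled points passed an adjusted p of 0.05; at 24 h these were Bcl2l11 and Bmf to the right of 0 and Bid to the left of 0 in both genotypes.

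Bad and Bik, the other BH3-only members, did not pass in any contrast. Bad encodes a protein that binds Bcl-xL and Bcl2 and is silenced by phosphorylation in cells with growth factor signals. Its levels in delta cells were 17.9 and 6.64 FPKM at 0 h, 5.52 and 4.81 FPKM at 12 h, and 6.28 and 4.78 FPKM at 24 h. In WT cells they were 11.9 and 8.15 FPKM at 0 h, 5.59 and 6.44 FPKM at 12 h, and 7.35 and 6.42 FPKM at 24 h. All later libraries lay below the 0 h libraries of their genotype, and the delta 0 h library numbered 1 was the highest of all. The log2 difference at 24 h was -0.89 in delta (limma, BH-adjusted p = 0.143) and -0.46 in WT cells (limma, BH-adjusted p = 0.507).

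For Bad, 1 library decided the outcome. Without delta 0 h replicate 2 the difference in delta cells was -1.62 at 12 h (limma, BH-adjusted p = 0.00838) and -1.55 at 24 h (limma, BH-adjusted p = 0.00464). Without both 0 h libraries numbered 1 it was -0.31 at 12 h (limma, BH-adjusted p = 0.305) and -0.24 at 24 h (limma, BH-adjusted p = 0.387). Those libraries also had the high ribosomal protein share, whose part in the Bad values was not tested. Bad shares 524 exon bases, 20.485% of its annotated length, with Gpr137 on the opposite strand, which reached up to 5.55 FPKM.

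Bik encodes a BH3-only protein of the endoplasmic reticulum. Its levels in delta cells were 2.01 and 1.57 FPKM at 0 h, 0.766 and 1.15 FPKM at 12 h, and 1.31 and 1.48 FPKM at 24 h. In WT cells they were 0.733 and 1.38 FPKM at 0 h, 0.427 and 0.531 FPKM at 12 h, and 0.993 and 0.655 FPKM at 24 h. Both 12 h libraries lay below both 0 h libraries in each genotype. The log2 difference at 12 h was -0.51 in delta (limma, BH-adjusted p = 0.203) and -0.46 in WT cells (limma, BH-adjusted p = 0.344). These values rest on 5 to 26 reads per library. The 12 h difference of Bik without the 0 h libraries numbered 1 was -0.40 in delta (limma, BH-adjusted p = 0.250) and -0.69 in WT cells (limma, BH-adjusted p = 0.101).

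These movements changed the make-up of the transcripts of the BH3-only members. The summed FPKM of the 5 genes in delta cells averaged 47.9, 26.6 and 34.0 at 0, 12 and 24 h. The WT averages at those times were 43.0, 25.3 and 31.6. The share of Bid in that sum at 24 h was 42.0% in delta cells, against 65.3% at 0 h, and 37.3% in WT cells, against 70.2% at 0 h. The share of Bmf at 24 h was 25.7% in delta cells, against 4.51% at 0 h, and 25.0% in WT cells, against 2.61% at 0 h. The share of Bcl2l11 at 24 h was 12.0% in delta cells, against 1.99% at 0 h, and 13.3% in WT cells, against 1.55% at 0 h. Every 24 h library had a lower Bid share and higher Bmf and Bcl2l11 shares than every 0 h library. Pmaip1 (Noxa), a BH3-only gene that is not among the members, is left out of these sums and shares. It averaged 1.10, 5.19 and 13.2 FPKM at 0, 12 and 24 h in delta cells, and 1.14, 4.51 and 7.91 FPKM in WT cells. Sums and shares that included it would differ, most at 24 h.

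**Figure D3:**
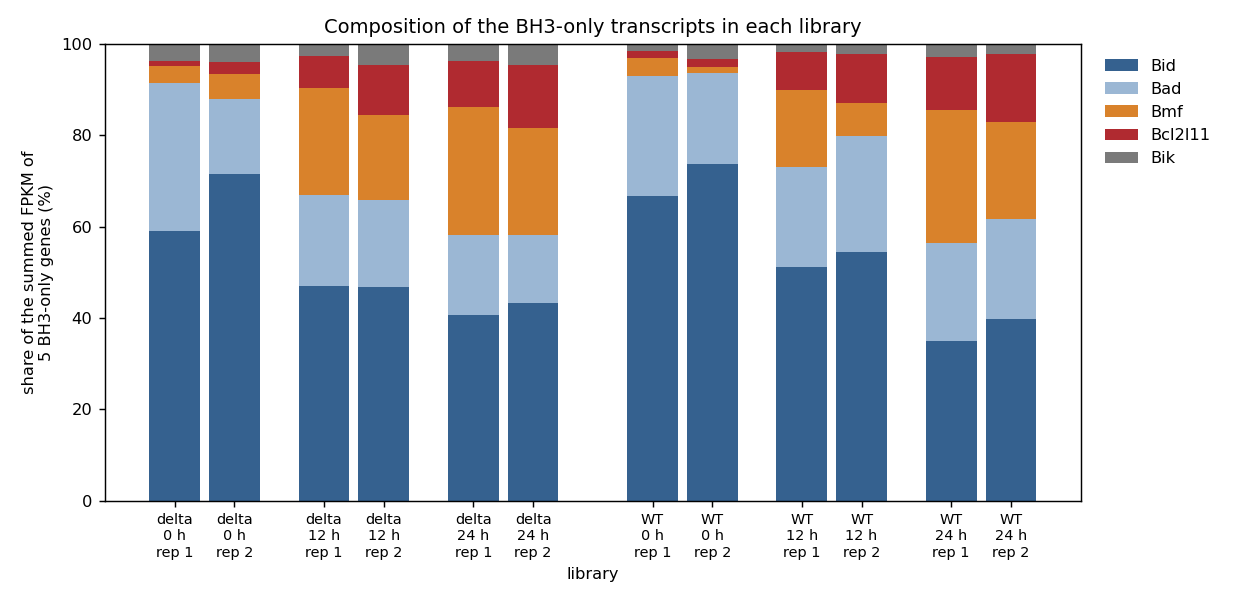
Share of each gene in the summed FPKM of the 5 BH3-only members, without Pmaip1 (vertical axis, percent, stacked to 100). Each of the 12 libraries is shown, delta on the left and WT on the right. The Bid segment shrinks from 0 h to 24 h in both genotypes, to 40.7% and 43.3% in delta and 34.9% and 39.7% in WT libraries, while the Bmf and Bcl2l11 segments widen.

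Among the anti-apoptotic genes, Mcl1 was the main transcript. Mcl1 encodes a short-lived protein that restrains Bak1 and Bim. Its level in delta cells was 149 and 102.5 FPKM at 0 h, 144 and 126 FPKM at 12 h, and 201 and 170.2 FPKM at 24 h. Its level in WT cells was 125 and 87.9 FPKM at 0 h, 131 and 109.5 FPKM at 12 h, and 181 and 135 FPKM at 24 h. Both 24 h libraries lay above both 0 h libraries in each genotype, by 1.47 times in delta and 1.48 times in WT means. The log2 difference was 0.58 in delta (limma, BH-adjusted p = 0.183) and 0.57 in WT cells (limma, BH-adjusted p = 0.237), with an SE of 0.27 each, and neither passed. With the replicate block the difference in delta cells passed (limma, BH-adjusted p = 0.0386). Without both 0 h libraries numbered 1 it passed in delta (0.85, limma, BH-adjusted p = 0.0264) and in WT cells (0.82, limma, BH-adjusted p = 0.0367).

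Bcl2l1 encodes Bcl-xL, which binds Bax, Bak1 and most BH3-only proteins. In delta cells its levels were 8.17 and 9.82 FPKM at 0 h, 14.6 and 14.6 FPKM at 12 h, and 10.01 and 11.3 FPKM at 24 h. In WT cells they were 11.2 and 16.4 FPKM at 0 h, 16.4 and 15.3 FPKM at 12 h, and 11.6 and 12.1 FPKM at 24 h. In delta cells both 12 h libraries lay above all others, while in WT cells the 0 h libraries overlapped the later ones. The difference at 12 h was 0.65 in delta (SE 0.20, limma, BH-adjusted p = 0.0903) and 0.21 in WT cells (limma, BH-adjusted p = 0.617). The one in delta cells passed without delta 0 h replicate 2 (limma, BH-adjusted p = 0.0321), WT 0 h replicate 1 (0.0461) or WT 0 h replicate 2 (0.0459), and without both 0 h libraries numbered 1 (0.0283). Without that last pair, Bcl2l1 at 24 h was lower in WT cells by a log2 difference of -0.43 (limma, BH-adjusted p = 0.0452). Mcl1 exceeded Bcl2l1 by 5.38 to 20.1 times over the libraries.

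Bcl2, the founding member of the family, was close to the detection limit. Its 14 reads in WT 12 h replicate 1 were the most in any library. The delta libraries read 0 and 0.0124 FPKM at 0 h, 0.0438 and 0.0317 FPKM at 12 h, and 0.0213 and 0.0338 FPKM at 24 h. The WT libraries read 0.0539 and 0.00838 FPKM at 0 h, 0.0879 and 0.0219 FPKM at 12 h, and 0.0511 and 0.00963 FPKM at 24 h. A count of 0 in the first delta library allows up to 0.0365 FPKM (3 reads), counting error only, and most values lay below that. The WT number 1 libraries were above the WT number 2 libraries at each time. The same libraries had higher levels of Tagln, a smooth muscle and fibroblast marker (7.84, 21.1 and 15.2 FPKM, against 1.16, 2.91 and 2.11 FPKM in the number 2 libraries of WT cells), whose part in the Bcl2, Bmf and Bak1 values was not tested.

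The effectors did not move detectably with time. Bax, which shuttles between the cytosol and mitochondria, stood at 485 and 243 FPKM at 0 h, 319.5 and 314 FPKM at 12 h, and 368 and 326 FPKM at 24 h in delta cells. The WT values were 312 and 249 FPKM at 0 h, 225 and 285 FPKM at 12 h, and 266 and 320.2 FPKM at 24 h. The delta 0 h library numbered 1 was the highest and the groups overlapped over time. The 24 h difference was 0.01 in delta (95% interval -0.71 to 0.73) and 0.07 in WT cells (-0.65 to 0.78). Without the 0 h libraries numbered 1 it was 0.51 in delta (limma, BH-adjusted p = 0.0793) and 0.23 in WT cells (limma, BH-adjusted p = 0.417).

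Bak1, which resides in the mitochondrial outer membrane, stood at 32.6 and 45.0 FPKM at 0 h, 37.7 and 41.3 FPKM at 12 h, and 47.2 and 39.8 FPKM at 24 h in delta cells. The WT values were 46.7 and 34.3 FPKM at 0 h, 41.9 and 29.9 FPKM at 12 h, and 53.4 and 33.2 FPKM at 24 h. The groups overlapped over time. The 24 h difference was 0.17 in delta (95% interval -0.47 to 0.82) and 0.07 in WT cells (-0.58 to 0.72). It was -0.05 for Bak1 in delta (limma, BH-adjusted p = 0.918) and 0.29 in WT cells (limma, BH-adjusted p = 0.535) without the 0 h libraries numbered 1. All 4 intervals of the effectors include the difference of 0.57 found for Mcl1 in WT cells. Bak1 shares 437 exon bases, 18.155% of its annotated length, with an entry of Ggnbp1 on the opposite strand, which reached up to 7.12 FPKM. Bax shares 192 exon bases, 12.183% of its annotated length, with Gm45808 on the same strand, whose level was not available. Bax exceeded Bak1 by 4.98 to 14.9 times over the libraries, at the recovered Bax length of 869 bases. The annotated length, which is longer, would lower these ratios if the reads stayed the same.

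Summed by class, the anti-apoptotic genes averaged 135, 149 and 196 FPKM (0, 12 and 24 h) in delta cells, and 120.5, 136 and 170 FPKM at the same times in WT cells. Mcl1 made up most of each sum. The effectors averaged 403, 356 and 390.4 FPKM at 0, 12 and 24 h in delta cells, and 321, 291 and 336 FPKM in WT cells. In the 0 h libraries numbered 2 alone, the anti-apoptotic sum was 112.3 FPKM in delta and 104 FPKM in WT cells, the effector sum 288 FPKM and 283 FPKM, and the BH3-only sum 40.6 FPKM and 41.1 FPKM. The ratio of the anti-apoptotic to the BH3-only sum ranged from 2.54 to 5.90 over the 12 libraries. The BH3-only sum covers members only and leaves out Pmaip1. These are RNA sums, and the amount and activity of each protein were not measured. In bulk RNA, fewer cells with a transcript and less of it in each cell cannot be told apart.

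The deletion of the Tcf15 region was not accompanied by a detectable change in these genes. Of the 9 tested members, 0 were called between delta and WT cells at 0 h (0.00715% of all genes called), 12 h (0.0143%), 24 h (0.00715%) or averaged over the times (0.0143%). The corresponding counts over all genes were 1, 2, 1 and 2. At an unadjusted p under 0.05 they were 282 genes at 0 h, 214 at 24 h and 605 for the average, with fewer at 12 h. For a difference between the genotypes in the change over time, 0 members and 0 of all tested genes (0%) were called at 12 or 24 h by limma, and 0 by voom. At an unadjusted p under 0.05 there were 86 genes at 12 h and 138 at 24 h. Tcf15 itself was called lower in delta cells at 12 h (-4.34, limma, BH-adjusted p = 0.0473). It was not called at 0 h (-1.40) or at 24 h (-4.06, limma, BH-adjusted p = 0.0832). Its change also differed without a call, by -2.94 at 12 h and -2.65 at 24 h. These tests can thus miss large differences, and 0 calls do not show that the members were unchanged.

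The intervals show what size of difference these libraries could miss. Averaged over times, Bcl2l11 differed by 0.03 (95% interval -0.24 to 0.30) and Bid by 0.06 (-0.13 to 0.26) on the log2 scale, delta minus WT. The 24 h change differed between delta and WT cells by -0.22 for Bcl2l11 (-0.89 to 0.45), by -0.44 for Bmf (-1.64 to 0.76) and by 0.23 for Bid (-0.25 to 0.71). The Bmf interval was the widest of these.

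Of the 9 genes, 3 had a 95% interval for the averaged difference that did not include 0, all with a BH-adjusted p of 1 in limma. Such an interval equals an unadjusted p under 0.05, which 605 of the 13981 tested genes had for this difference. Bik was higher in delta than in WT cells by 0.42 (0.13 to 0.70), and both delta libraries lay above both WT libraries at each time. Its values rest on 5 to 26 reads per library. Bmf was higher by 0.50 (0.01 to 0.98), and both delta libraries lay above both WT libraries at 0 and 12 h but not at 24 h. Bcl2l1, the member nearest to the deletion, was lower by a difference of -0.27 (-0.52 to -0.01), and both delta libraries lay below both WT libraries at each time. At 0 h its difference was -0.55 (-0.99 to -0.10). None of these intervals is adjusted for the number of genes tested. For such separations of libraries, here and in the changes over time, the share of all tested genes that did the same is not given. Without the 0 h libraries numbered 1 the averaged differences were 0.30 for Bik (limma, BH-adjusted p = 0.294), 0.65 for Bmf (0.274) and -0.31 for Bcl2l1 (0.155).

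Comparing libraries of the same number and time gave 6 pairs of a delta and a WT library. The pairs compare the same delta and WT lines again at each time, so they are not independent replicates. The share of all tested genes with the same direction in 6 of 6 pairs is not given, so the counts are a description. Mcl1 was higher in the delta library in 6 of 6 pairs, by 0.13 to 0.33 on the log2 scale. Bmf was higher in 6 of 6 pairs (0.01 to 1.03) and Bik in 6 of 6 (0.11 to 0.80). Bcl2l1 was lower in 6 of 6 pairs (-0.68 to -0.06). Bak1 was lower in the delta library in all 3 pairs numbered 1 and higher in all 3 pairs numbered 2. Bax was higher by 0.47 to 0.64 in the pairs numbered 1 and differed by -0.03 to 0.14 in those numbered 2. With the replicate number as a block, 0 members were called between the genotypes, and the smallest adjusted p of the averaged difference was 0.455 (limma, BH-adjusted) for Bmf and Bik.

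**Figure D4:**
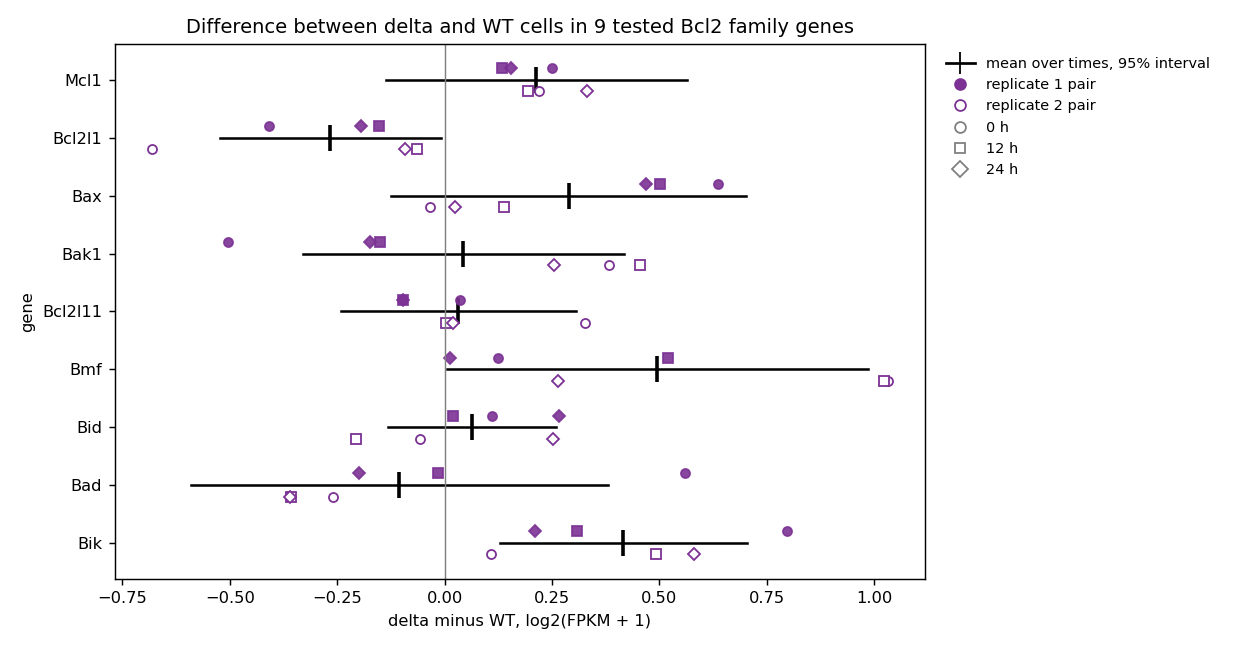
Difference between delta and WT cells (delta minus WT, log2(FPKM + 1), horizontal axis) for the 9 tested genes; the vertical tick and line give the mean over times with its 95% interval, filled symbols the replicate 1 pairs and open symbols the replicate 2 pairs at 0 h (circles), 12 h (squares) and 24 h (diamonds). The 6 pairs of Mcl1, Bmf and Bik lie right of 0 and the 6 pairs of Bcl2l1 left of 0, while Bak1 pairs split by replicate number.

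Promoters of the 3 genes that changed with time were read from RefSeq (GRCm38.p6) to show the sequence at their starts. The tables held 15 promoters for 9 of the 10 members, each a window of 300 bases around a transcript start. Capitals mark E-boxes (CANNTG, the motif of basic helix-loop-helix factors such as Tcf15) and a forkhead motif (GTAAACA, bound by Foxo factors), searched on both strands with no overlapping matches in these windows. For each gene the window at or nearest the annotated gene start is given, 5′ to 3′ along the strand of the gene.
Bcl2l11: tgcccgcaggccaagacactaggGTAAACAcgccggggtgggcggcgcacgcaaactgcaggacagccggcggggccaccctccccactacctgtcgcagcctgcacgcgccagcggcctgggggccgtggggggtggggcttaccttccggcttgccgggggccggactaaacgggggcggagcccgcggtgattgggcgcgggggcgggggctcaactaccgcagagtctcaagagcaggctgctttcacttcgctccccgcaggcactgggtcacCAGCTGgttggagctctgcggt
Bmf: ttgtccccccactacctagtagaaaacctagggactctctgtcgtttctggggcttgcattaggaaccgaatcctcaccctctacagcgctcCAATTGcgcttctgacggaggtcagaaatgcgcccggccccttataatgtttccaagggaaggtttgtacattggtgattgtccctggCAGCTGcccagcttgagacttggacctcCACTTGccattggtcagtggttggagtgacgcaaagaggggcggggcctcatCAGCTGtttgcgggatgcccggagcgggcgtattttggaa
Bid: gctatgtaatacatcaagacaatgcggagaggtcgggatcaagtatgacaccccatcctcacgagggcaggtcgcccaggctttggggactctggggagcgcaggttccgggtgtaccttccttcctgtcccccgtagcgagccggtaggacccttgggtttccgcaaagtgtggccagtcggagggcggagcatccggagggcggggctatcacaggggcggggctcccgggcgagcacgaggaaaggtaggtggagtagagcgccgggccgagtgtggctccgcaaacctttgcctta
The Bcl2l11 window (chr2:128125788-128126087, plus strand) held 1 forkhead motif and 1 E-box. The Bmf window (chr2:118549637-118549936, minus strand) held 4 E-boxes, and the Bid window (chr6:120916775-120917074, minus strand) held 0 of either. An E-box was found in 11 of the 15 member promoters and in 72.3% of 32851 mouse promoters of 300 bases. The forkhead motif was found in 1 of the 15 and in 3.65% of all. Such matches describe the letters alone.

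The other genes of the pathway were summarised by 7 lists, whose median changes at 24 h lay between -0.31 and 0.18 in delta and between -0.28 and 0.20 in WT cells, against -0.05 and -0.03 over all tested genes. Among 15 other BCL2 family genes, 9 were tested, and at 24 h 1 rose and 1 fell in each genotype. The gene that rose was Pmaip1 (Noxa), a BH3-only partner of Mcl1. Its mean at 24 h was 13.2 ± 5.73 FPKM in delta cells, against 1.10 ± 0.483 FPKM at 0 h, and 7.91 ± 3.47 FPKM in WT cells, against 1.14 ± 0.293 FPKM at 0 h (SD, n = 2 each). The log2 rise was 2.72 in delta (limma, BH-adjusted p = 0.00108) and 2.01 in WT cells (limma, BH-adjusted p = 0.00656). The gene that fell was Bcl2l14, by -0.93 in delta (limma, BH-adjusted p = 0.0122) and -0.84 in WT cells (limma, BH-adjusted p = 0.0249). Bok, a relative of the effectors, and Bnip3, a mitophagy receptor, did not pass in any contrast.

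Downstream of the mitochondrion, 0 of 12 apoptosome, caspase and released-factor genes were called in either genotype at 12 or 24 h. Over all tested genes, 7% and 15.4% were called at 12 and 24 h in delta cells, and 4.03% and 10.2% in WT cells. With 12 genes, 0 calls cannot be told from these shares. This list includes Apaf1 and Cycs, whose products build the apoptosome. Of the inhibitor of apoptosis proteins, 6 of 10 genes were tested. Birc7 fell at 24 h in delta cells (-0.93, limma, BH-adjusted p = 0.0157) and stood at -0.72 in WT cells (limma, BH-adjusted p = 0.0565). It reached 1 FPKM only in the 0 h libraries numbered 2, so the filter favoured a fall from 0 h for this gene. Its levels were low, with a mean of 0.110 FPKM at 24 h, against 1.12 FPKM at 0 h, in delta cells. The WT means were 0.207 FPKM at 24 h and 0.977 FPKM at 0 h. Of the death receptor genes, 6 of 10 were tested. Tnfrsf1a, the main receptor for tumour necrosis factor, fell at 24 h by -1.50 in delta (limma, BH-adjusted p = 0.00295) and -1.59 in WT cells (limma, BH-adjusted p = 0.00281). Its adaptor Tradd fell in delta cells (-1.12, limma, BH-adjusted p = 0.0112) and stood at -0.68 in WT cells (limma, BH-adjusted p = 0.0981).

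Among 20 genes for binding partners, kinases and ubiquitin ligases of the members, 1 rose and 1 fell at 24 h in delta cells, and 0 were called in WT cells. Dynll2, the dynein light chain that anchors Bmf, was the one that rose, by 0.73 (limma, BH-adjusted p = 0.0167), and stood at 0.55 in WT cells (limma, BH-adjusted p = 0.0649). Pim3, a kinase that phosphorylates Bad, fell by -0.58 in delta cells (limma, BH-adjusted p = 0.028) and stood at -0.43 in WT cells (limma, BH-adjusted p = 0.103). No gene passed the test of a difference in change between genotypes, so these calls do not separate delta from WT cells.

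Of 11 transcription factors known to act on family members, 4 rose and 3 fell at 24 h in delta cells, and 3 rose and 1 fell in WT cells. Myc rose by 2.78 in delta (limma, BH-adjusted p = 0.000304) and 2.48 in WT cells (limma, BH-adjusted p = 0.000726). Foxo4, of the factor group that acts on Bcl2l11, rose by 0.84 in delta (limma, BH-adjusted p = 0.00605) and 0.73 in WT cells (limma, BH-adjusted p = 0.0151). The stress factors Atf4 (-1.22, limma, BH-adjusted p = 0.0136) and Ddit3 (-1.22, limma, BH-adjusted p = 0.013) fell in delta cells and stood at -0.92 (0.0563) and -0.88 (0.0631) in WT cells. Of 15 p53 targets that are no members, 2 fell at 24 h in each genotype and 0 rose. Over all tested genes, 15.4% were called at 24 h in delta and 10.2% in WT cells. The median change of this list was 0.04 in each genotype. Zmat3 averaged 10.9 FPKM at 24 h, against 6.83 FPKM at 0 h, in delta cells, and 8.29 against 4.86 FPKM in WT cells. Sesn2 averaged 58.0 against 43.1 FPKM in delta and 49.7 against 40.7 FPKM in WT cells. Neither was called. Cdkn1a, a cell cycle inhibitor, fell by -1.83 in delta (limma, BH-adjusted p = 0.0226) and -1.93 in WT cells (limma, BH-adjusted p = 0.0234), and Tigar by -2.17 in delta (limma, BH-adjusted p = 0.00122) and -1.85 in WT cells (limma, BH-adjusted p = 0.00364). In each of these lists 0 genes were called between delta and WT cells. Each 24 h call named from the lists held without the 0 h libraries numbered 1.

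Genes whose profile over the 6 group means was most like that of Bmf were Carhsp1 (r = 0.996), Yars2 (0.994) and Akr1b3 (0.994). For Bid they were Coa7 (r = 0.995), Ddx50 (0.994) and Copb1 (0.993). Bmf and Bid had the largest rise and fall at 24 h in log2(FPKM + 1) averaged over the genotypes (1.87 and -1.17), while in delta cells alone the ratio of mean FPKM was higher for Bcl2l11 (4.48) than for Bmf (4.20). The genes named are the top of 7881 genes ranked on 6 points that share libraries within a group, and are given as a description.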

How the data were processed

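Messenger RNA of 12 libraries was sequenced, per the labels' protocols from oligo-dT selected RNA with a NEBNext Ultra II kit. The authors deposited FPKM values. The submitters' processing notes list cutadapt, STAR 2.5.2b, featureCounts 1.5.1, edgeR 3.16.5 and build mm10, with neither role nor order. FPKM is not a count. Whole reads could be recovered from its steps for 100% of the 28657 genes above 0, within a tolerance of 0.01, and 80.1% of these used the GENCODE M21 length. The recovered depth was 9740851 to 17571255 reads, with 0.0569 to 0.111 FPKM for each read per kilobase. Read floors cover counting error only.

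With limma 3.58.1 (R 4.3.3), log2(FPKM + 1) of 13981 genes entered 1 model with a mean for each of 6 groups, moderated variances with a trend, and no replicate block (6 residual and 3.11 prior degrees of freedom). Two-sided p-values were adjusted by Benjamini-Hochberg over all tested genes of a contrast. The 10 contrasts covered each change from 0 h, the genotype difference by time and averaged, and the difference of the changes. The fit was tested on simulated data.

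Replicate numbers come from the titles. Deviations from group means of same-numbered delta and WT libraries correlated at 0.70, 0.28 and 0.37 at 0, 12 and 24 h, so the numbers were taken to pair the libraries. All members were named. From each list, up to 4 other genes with the smallest adjusted p were eligible to be named, and the genes most like Bmf and Bid were ranked by Pearson correlation. The members and lists were chosen with earlier results of these data known. Alternatives were a pseudocount of 0.1, no filter, median ratio scaling, the replicate block, voom on recovered reads (library sizes from the FPKM scale), and leaving out each library. Leaving out both 0 h libraries numbered 1 was added after seeing the data. Protein sequences were not used here. Sequences came from GENCODE M21 transcripts and RefSeq promoters. Other software was Python 3.11.15 with numpy 2.4.6, pandas 2.3.3, Biopython 1.88 and matplotlib 3.10.9.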

Additional observations from a re-analysis of the deposited data

How the results depend on the processing

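The 9 member calls over time (Bcl2l11 and Bid in 3 and 4 changes, Bmf in 2) were recomputed under 5 planned settings, 12 fits that each left out 1 library and 1 added setting, which gave 162 values. Of these values, 148 kept direction and threshold, 14 kept direction only (13 without 1 library) and 0 reversed. A fit that left out a library of a group outside the contrast could change the p-value but not the difference. The same holds for the replicate block and for the fit without the filter. Direction could thus not reverse in many of these values. The 5 calls that never fell below the threshold were Bcl2l11 and Bid at 24 h in both genotypes and Bid at 12 h in delta cells. The cause of each shift was not tested. Without the low-value filter, 1 member was called at 12 h in WT cells: Bid, while Bcl2l11 was lost (limma, BH-adjusted p = 0.0685). Members called at 12 h in delta cells were 2 with a pseudocount of 0.1 and 2 with voom, 3 with the replicate block, and 2 without both 0 h libraries of number 1, where 5 were called at 24 h in WT cells.

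Over all genes, the replicate block gave 1605 calls at 12 h in delta cells (979 without it), 989 in WT cells (563) and 2 for delta against WT at 24 h (1). The paired fit changed no other count by over 1.5 times. Without both 0 h libraries of number 1, genes called were 2387 (12 h) and 3906 (24 h) in delta cells, 1169 and 2830 in WT cells, and 3, 1 and 5 for delta against WT at 0 h, 12 h and averaged; the lone 0 h library of each genotype is then assumed to vary like the other groups. Without the filter, 6, 18 and 10 genes differed between delta and WT cells at 0 h, 24 h and averaged, and 5 and 13 in the change to 12 and 24 h. Voom gave 1 at 12 h.

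Leaving out 1 library at a time gave 173 to 4522 genes and 1 to 4 members at 12 h in delta cells, and 789 to 5080 genes and 2 to 4 members at 24 h. The highest values came without delta 0 h replicate 2. In WT cells the ranges were 130 to 1084 genes and 0 to 2 members at 12 h, and 596 to 2458 genes and 2 to 3 members at 24 h. For delta against WT they were 0 to 1 gene at 0 h, 0 to 2 at 12 h, 1 to 2 at 24 h and 2 averaged. For the difference in change at 12 h they were 0 to 1 gene. Members called between genotypes were 0 throughout. Median ratio scaling moved no count by over 1.5 times. Depth limits Bcl2 (at most 14 reads) and Bik (5 to 26 reads) most.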
